A study of Homo sapiens with 24 samples.

Results

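The aldo-keto reductases are cytosolic enzymes that use NADPH to reduce aldehydes and ketones, among them steroids, prostaglandins, sugars and the aldehydes left by lipid peroxidation. The 7 genes considered here were AKR1C1, AKR1C2, AKR1C3, AKR1B10, AKR1B1, AKR1A1 and AKR7A2, and each was represented by the probe set that the platform annotation assigned to that gene alone and whose mean over the 24 arrays was highest. The annotation table paired 5 of the 7 with a probe set, out of 18132 genes that had one, and AKR1A1 and AKR1B1 were not analysed here. The family was chosen by a readout of these arrays, the difference of AKR1C1 between dasatinib and DMSO. The probe sets were selected on their mean over treated and untreated arrays together. The dasatinib against DMSO values of AKR1C1, and comparisons made from its dasatinib arrays or its DMSO arrays, are therefore given as a description, with no p-value.

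The arrays were Affymetrix PrimeView arrays, which measure transcripts near the 3' end, hybridised with RNA of Caki-1 and of 769-P, which are established lines of human renal carcinoma. Each line was treated with dasatinib, an inhibitor of the ABL and SRC family tyrosine kinases, at 1 µM for 6, 12 or 24 h, or with DMSO, the solvent of the drug, with 3 arrays labelled as biological replicates in each of the 8 groups. No time is labelled for DMSO. Within a line, every comparison with DMSO therefore shares its 3 control arrays. Each line is 1 established culture, and because whole cultures were measured, more cells carrying a transcript and more transcript per cell cannot be told apart.

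AKR1C1, AKR1C2 and AKR1C3 are neighbouring genes on chromosome 10 and encode hydroxysteroid dehydrogenases of closely similar sequence. AKR1B10 on chromosome 7 encodes a reductase of retinal and other aldehydes, and AKR7A2 on chromosome 1 encodes an aflatoxin aldehyde and succinic semialdehyde reductase. Several genes of the family, AKR1C1 to AKR1C3 and AKR1B10 among them, are known targets of NRF2, the transcription factor of the oxidative stress response, which binds antioxidant response elements and is held in check by KEAP1.

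The stretches before the transcription starts of the AKR1C members and of AKR7A2 are given as a description. None was listed for AKR1B10. The part of these sequences in the changes under dasatinib was not tested. The 250 bases before the start are given 5' to 3' from RefSeq on GRCh38.p14, in lower case with matches to 3 searched motifs in capitals. They lie at chr10:4963165-4963414 on the plus strand for AKR1C1, chr10:5003858-5004107 on the minus strand for AKR1C2, chr10:5048531-5048780 on the plus strand for AKR1C3 (the first of 2 listed starts), and chr1:19312147-19312396 on the minus strand for AKR7A2.
AKR1C1: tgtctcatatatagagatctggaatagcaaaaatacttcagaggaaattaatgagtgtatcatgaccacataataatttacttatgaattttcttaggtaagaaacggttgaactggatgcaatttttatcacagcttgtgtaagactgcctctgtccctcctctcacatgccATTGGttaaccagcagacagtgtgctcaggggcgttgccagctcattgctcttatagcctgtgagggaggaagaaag
AKR1C2: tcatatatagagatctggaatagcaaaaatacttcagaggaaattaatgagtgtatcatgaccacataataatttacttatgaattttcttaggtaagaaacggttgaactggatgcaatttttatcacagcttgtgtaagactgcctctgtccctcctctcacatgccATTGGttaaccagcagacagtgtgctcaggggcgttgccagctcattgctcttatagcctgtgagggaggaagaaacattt
AKR1C3: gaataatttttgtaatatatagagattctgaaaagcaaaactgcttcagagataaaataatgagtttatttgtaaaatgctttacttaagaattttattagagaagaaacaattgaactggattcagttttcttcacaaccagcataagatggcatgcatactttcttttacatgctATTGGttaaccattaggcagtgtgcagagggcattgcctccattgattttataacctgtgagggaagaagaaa
AKR7A2: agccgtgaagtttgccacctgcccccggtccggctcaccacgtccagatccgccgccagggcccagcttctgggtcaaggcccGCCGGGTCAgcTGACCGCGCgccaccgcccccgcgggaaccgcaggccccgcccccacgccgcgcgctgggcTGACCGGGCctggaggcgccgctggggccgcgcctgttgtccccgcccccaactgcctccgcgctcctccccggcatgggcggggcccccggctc

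Aligned to each other, the AKR1C1 and AKR1C2 stretches were identical at 245 of 246 bases, in 1 unbroken shared run of 245. AKR1C3 matched AKR1C1 at 185 of 241 aligned bases, or 76.8%, and the stretch before its other listed start matched at 79.1%. Each of the 3 AKR1C stretches held 1 CCAAT box, read on the opposite strand as ATTGG, which began 77, 81 and 73 bases before the start of AKR1C1, AKR1C2 and AKR1C3. The AKR7A2 stretch held none. The core of the antioxidant response element, spelled TGACNNNGC, had 3 matches before AKR7A2, beginning 167, 156 and 95 bases before the start, and no match in the 3 AKR1C stretches. An AP-1 site spelled TGANTCA had no match in any of the 4. Both strands were searched and no matches overlapped. Of 35116 promoter stretches of the same length, 32.0% held a CCAAT box, 10.9% the antioxidant response core and 6.6% the AP-1 site, and a match or its absence says only that these letters are or are not in this window.

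The deposited values were log2 signals between 2.80 and 15.19, with array medians between 6.008 and 6.084 and correlations between arrays of a group of 0.9929 to 0.9975. Of the kidney epithelial markers with a probe set, 6 of 7 in Caki-1 and 7 of 7 in 769-P lay above the limit for testing a gene (5.38 and 5.36). PAX8, a renal lineage transcription factor, was among them in both lines. EPCAM, an epithelial surface protein, lay below it in Caki-1 at 5.20. PTPRC, which marks leukocytes, lay at 3.45 and 3.48, near the lowest values of the arrays, while 3 of 4 leukocyte markers in Caki-1 and 2 of 4 in 769-P, and 2 of 3 endothelial markers in each line, lay above the limit. All 5 members with a probe set passed the limit in both lines. The limit is low, since VWF and PECAM1, the endothelial markers above it, averaged 5.75 and 5.89 in Caki-1. Under DMSO in Caki-1, AKR1C2 averaged 6.04 and AKR1B10 5.98, near the array medians. The part of that low signal in their Caki-1 changes and in their differences between the lines was not tested. Log2 signals of different probe sets are not compared with each other below, because probe sets differ in how strongly they bind. Differences between groups were tested with limma across all genes tested, 12420 in Caki-1 and 12350 in 769-P, and a gene was called at a Benjamini-Hochberg adjusted p under 0.05. Since the labels do not say whether replicates were grown separately, the p-values measure only the spread between these arrays.

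AKR1C1, which inactivates progesterone, rose steeply up to 12 h and then little. In Caki-1 its 3 DMSO arrays read 7.13, 7.66 and 7.56 on the log2 scale, the 6 h arrays 8.78, 9.66 and 9.78, the 12 h arrays 10.74, 11.67 and 11.64, and the 24 h arrays 10.93, 11.76 and 11.77. In 769-P they read 7.65, 8.28 and 8.70 under DMSO, 10.38, 10.70 and 11.01 at 6 h, 12.22, 12.36 and 12.67 at 12 h, and 12.50, 12.80 and 13.12 at 24 h. At every time and in both lines, each dasatinib array lay above every DMSO array. The share of all genes that separate this way was not counted, so the lack of overlap is a description, here and for the members below. The difference from DMSO in Caki-1 was 1.95 at 6 h, 3.90 at 12 h and 4.04 at 24 h on the log2 scale (SE 0.29 each), the last a 16.4-fold difference. In 769-P it was 2.48 at 6 h, 4.21 at 12 h and 4.60 at 24 h (SE 0.22 each), the last a 24.2-fold difference.

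AKR1C2, which reduces dihydrotestosterone to a weak androgen, had its highest mean at 12 h in both lines. In Caki-1 it read 6.08, 6.00 and 6.04 under DMSO, 6.79, 8.13 and 8.13 at 6 h, 8.55, 9.92 and 9.87 at 12 h, and 8.61, 9.41 and 9.45 at 24 h. In 769-P it read 8.45, 8.60 and 8.67 under DMSO, 11.48, 11.64 and 11.26 at 6 h, 12.69, 12.74 and 12.68 at 12 h, and 12.22, 12.21 and 12.14 at 24 h. Dasatinib arrays and DMSO arrays did not overlap. In Caki-1 the log2 difference from DMSO was 1.64 at 6 h (adjusted p = 0.0039), 3.40 at 12 h (adjusted p = 2.6e-06) and 3.11 at 24 h (adjusted p = 3e-06), with an SE of 0.37. In 769-P it was 2.89 at 6 h (adjusted p = 9.7e-12), 4.13 at 12 h (adjusted p = 4.6e-14) and 3.61 at 24 h (adjusted p = 8.4e-14), with an SE of 0.08. The Caki-1 call at 6 h was lost when the arrays numbered 2 were left out of every group (1.40, adjusted p = 0.081) and when those numbered 3 were (1.42, adjusted p = 0.097).

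AKR1C3, which makes testosterone and prostaglandin F from their precursors, rose from a bright start. In Caki-1 it read 11.04, 10.97 and 10.78 under DMSO, 12.05, 12.42 and 12.50 at 6 h, 13.01, 13.15 and 13.08 at 12 h, and 12.95, 13.02 and 13.06 at 24 h. In 769-P it read 12.90, 13.07 and 13.24 under DMSO, 14.15, 14.18 and 14.18 at 6 h, 14.49, 14.46 and 14.56 at 12 h, and 14.44, 14.47 and 14.45 at 24 h. The groups again did not overlap, and the replicates lay closer together than those of AKR1C1. The log2 difference from DMSO in Caki-1 was 1.39 at 6 h (adjusted p = 1.1e-07), 2.15 at 12 h (adjusted p = 8.3e-10) and 2.08 at 24 h (adjusted p = 2e-10), with an SE of 0.09. In 769-P it was 1.10 at 6 h (adjusted p = 5.6e-09), 1.43 at 12 h (adjusted p = 2.8e-10) and 1.38 at 24 h (adjusted p = 4.9e-11), with an SE of 0.06. Its highest array, 14.56, lay near the top of the scale, where the highest value of any probe set was 15.19, and 385 of 49395 probe sets had a higher mean over the arrays. The part of that ceiling in the smaller 769-P differences was not tested.

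AKR1B10, the retinal reductase, had its highest mean at a different time in each line, and the time courses were not tested against each other. In Caki-1 it read 5.92, 6.12 and 5.91 under DMSO, 6.82, 7.88 and 7.76 at 6 h, 7.33, 7.34 and 7.20 at 12 h, and 6.64, 7.35 and 7.29 at 24 h, so that its highest mean was at 6 h. In 769-P it read 7.75, 7.78 and 8.25 under DMSO, 8.78, 9.42 and 9.63 at 6 h, 9.60, 10.54 and 10.96 at 12 h, and 9.95, 10.40 and 10.89 at 24 h. No dasatinib array overlapped the DMSO arrays. In Caki-1 the log2 difference from DMSO was 1.50 at 6 h (adjusted p = 0.0002), 1.31 at 12 h (adjusted p = 0.00025) and 1.11 at 24 h (adjusted p = 0.00066), with an SE of 0.23. In 769-P it was 1.35 at 6 h (adjusted p = 0.0027), 2.44 at 12 h (adjusted p = 6.3e-06) and 2.49 at 24 h (adjusted p = 3.1e-06), with an SE of 0.30. The 769-P call at 6 h was lost when the arrays numbered 2 were left out of every group (1.21, adjusted p = 0.09).

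AKR7A2 changed least. In Caki-1 it read 9.33, 9.33 and 9.36 under DMSO, 9.48, 9.54 and 9.56 at 6 h, 9.63, 9.74 and 9.59 at 12 h, and 9.64, 9.59 and 9.73 at 24 h. In 769-P it read 9.65, 9.47 and 9.56 under DMSO, 9.75, 9.80 and 9.74 at 6 h, 9.73, 9.82 and 9.67 at 12 h, and 9.85, 9.91 and 9.85 at 24 h. The dasatinib arrays lay above the DMSO arrays throughout, the closest pair being 9.67 at 12 h against 9.65 under DMSO in 769-P. Without the share of all genes that separate this way, nothing is read from it. In Caki-1 the log2 difference from DMSO was 0.19 at 6 h (adjusted p = 0.048), 0.31 at 12 h (adjusted p = 0.001) and 0.31 at 24 h (adjusted p = 0.00066), with an SE of 0.07. In 769-P it was 0.20 at 6 h (adjusted p = 0.038), 0.18 at 12 h (adjusted p = 0.047) and 0.31 at 24 h (adjusted p = 0.0013), with an SE of 0.07. The 6 h call in Caki-1 was lost on leaving out any single array (adjusted p = 0.05 to 0.15), and the 6 and 12 h calls in 769-P were lost on leaving out 5 and 4 of the 6 arrays in turn (highest adjusted p = 0.17 and 0.2). These 3 calls also ended with no filter on dim genes (adjusted p = 0.07, 0.055 and 0.067).

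**Figure D1:**
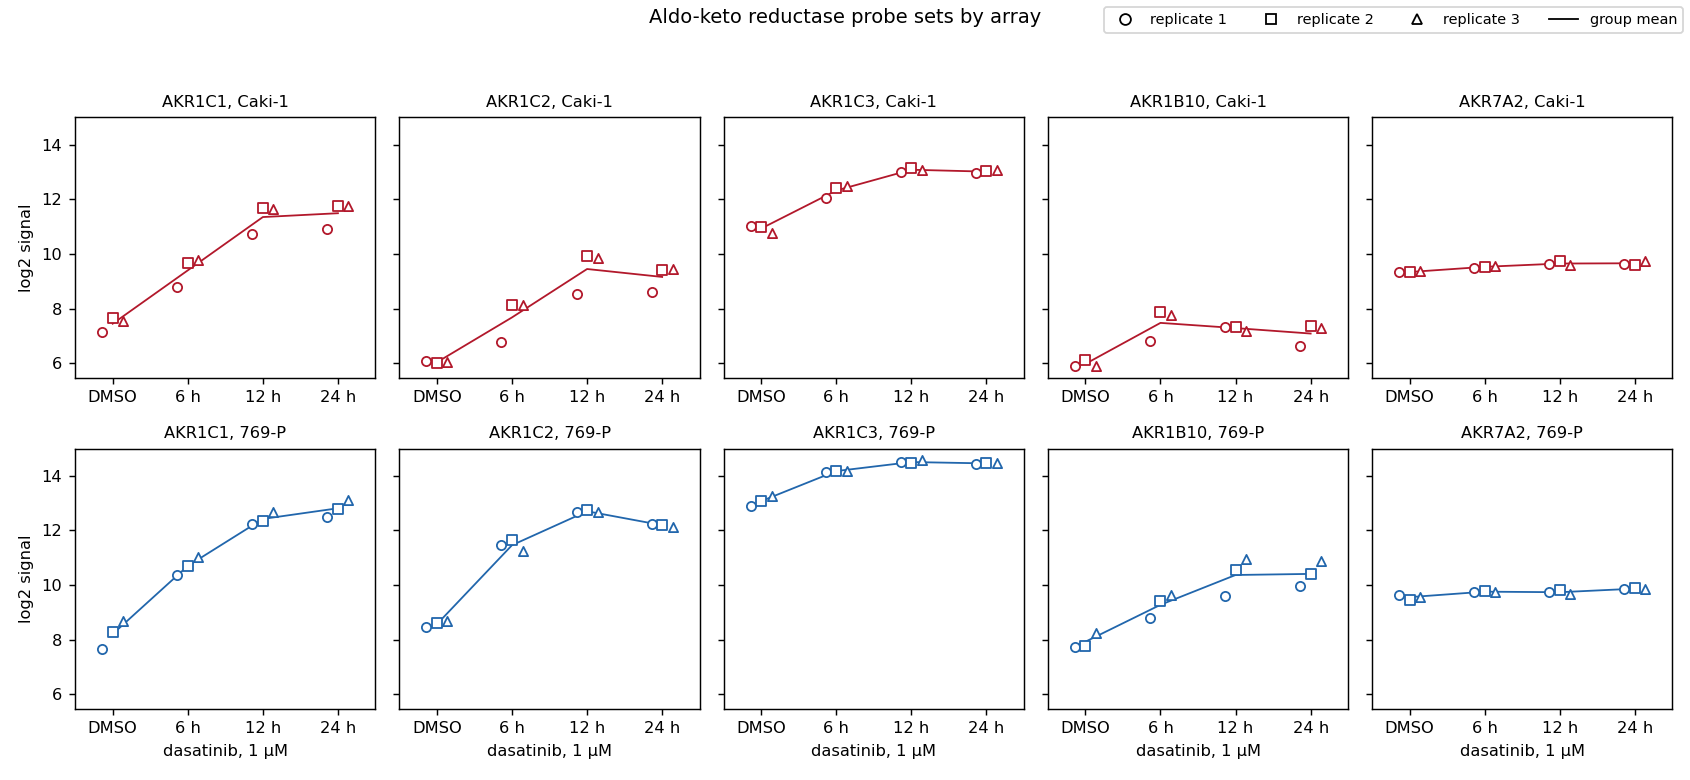
Log2 signal of the probe set used for each of the 5 measured members in every array, with Caki-1 in the upper row and 769-P in the lower, DMSO and the 3 dasatinib times from left to right, marks for the replicate number and a line through the group means. AKR1C1 read 7.13 to 7.66 under DMSO and 10.93 to 11.77 at 24 h in Caki-1, and AKR7A2 stayed between 9.33 and 9.74 there.

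AKR1C2, AKR1C3, AKR1B10 and AKR7A2 were called higher under dasatinib at 6, 12 and 24 h in both lines, and AKR1C1, on whose difference the family was chosen, is left out of that count. Among all genes tested, the calls of a rise covered 12.3%, 24.1% and 32.9% in Caki-1 at 6, 12 and 24 h, and 16.4%, 24.9% and 31.1% in 769-P. The median log2 difference of the 5 members in Caki-1 was 1.50 at 6 h, 2.15 at 12 h and 2.08 at 24 h, against 0.01, 0.04 and 0.08 over all genes tested. In 769-P it was 1.35 at 6 h, 2.44 at 12 h and 2.49 at 24 h, against 0.02, 0.02 and 0.04. These counts and medians describe genes chosen with a rise among them known. Signal from AKR1C1 in the AKR1C2 and AKR1C3 probe sets cannot be told apart. Leaving AKR1C1 out may therefore not free their calls from that choice. The plot of changes shows the members in the same order of size in both lines at 24 h for AKR1C1, AKR1C2 and AKR7A2, while AKR1C3 and AKR1B10 changed places.

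**Figure D2:**
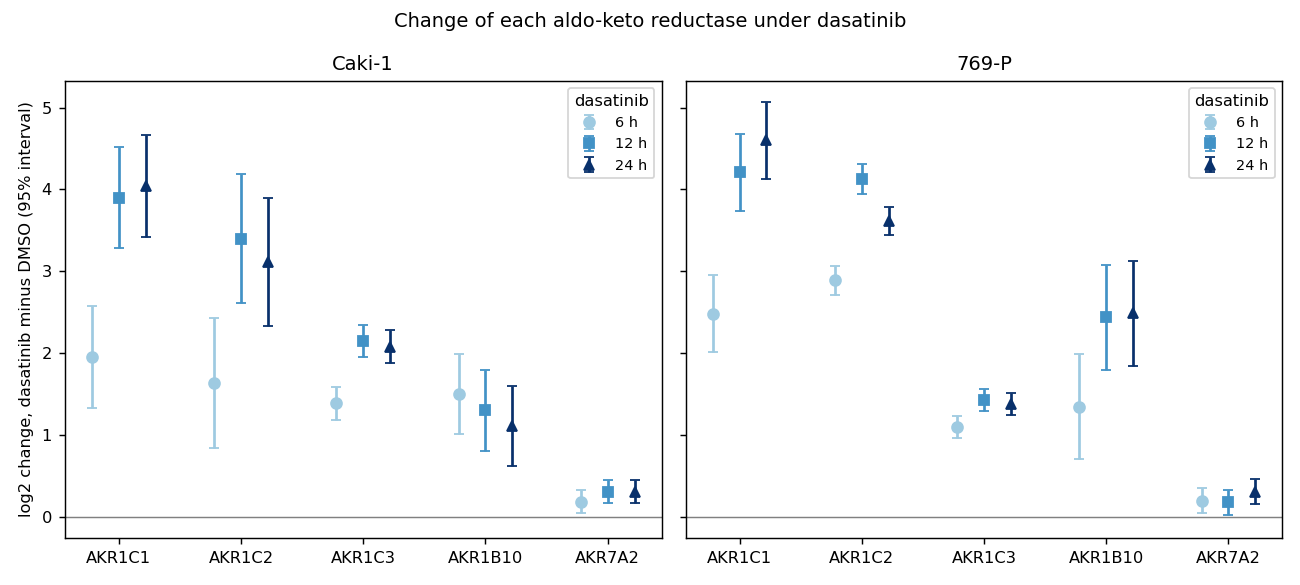
Log2 difference from DMSO of each measured member at 6, 12 and 24 h of dasatinib, with 95% confidence intervals from the limma fit, in Caki-1 on the left and 769-P on the right. AKR1C1 stood at 4.04 in Caki-1 and 4.60 in 769-P at 24 h, and AKR7A2 at 0.31 in both.

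Other probe sets of the same genes did not all move alike. The AKR1C1 measurement came from 11719172_x_at, and a second probe set for AKR1C1 alone differed from DMSO at 24 h by 4.0 in Caki-1 and 4.68 in 769-P, close to the values above. One probe set that the annotation gives to both AKR1C1 and AKR1C2 differed by 3.42 and 3.32, while a further pair shared by these genes, with means of 3.75 and 4.22 over the arrays, stayed between -0.05 and 0.23. For AKR1C2, measured by 11729101_a_at, the 2 other probe sets had lower means of 3.66 and 6.25 and differed by 0.08 and 0.68 in Caki-1 and by 0.17 and 1.03 in 769-P. The other AKR1C3 probe set, beside 11715711_a_at, had a mean of 3.72 and differed by 0.07 and 0.04. When all single-gene probe sets of a gene were averaged, the 24 h difference of AKR1C2 was 1.29 in Caki-1 and 1.60 in 769-P, and that of AKR1C3 was 1.08 and 0.71, with both genes still called. Because AKR1C1, AKR1C2 and AKR1C3 are so alike, signal from one in the probe sets of another cannot be told apart here.

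The other AKR1B10 probe set, beside 11724488_at, differed from DMSO at 24 h by 1.18 in Caki-1 and 2.71 in 769-P. Among those shared with AKR1B15, its near-identical neighbour, the differences were 0.01 and 0.27 in Caki-1 and 2.73 and 1.93 in 769-P. AKR1B15 by its own probe set was called higher at 24 h by 0.30 ± 0.11 in Caki-1 (adjusted p = 0.028) and by 1.38 ± 0.24 in 769-P (SE, adjusted p = 0.00011), with the same limit on telling the 2 genes apart. For AKR7A2, measured by 11756520_x_at, a second bright probe set differed by 0.29 and 0.32, and another, dimmer one by 0.22 and -0.02.

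**Figure D3:**
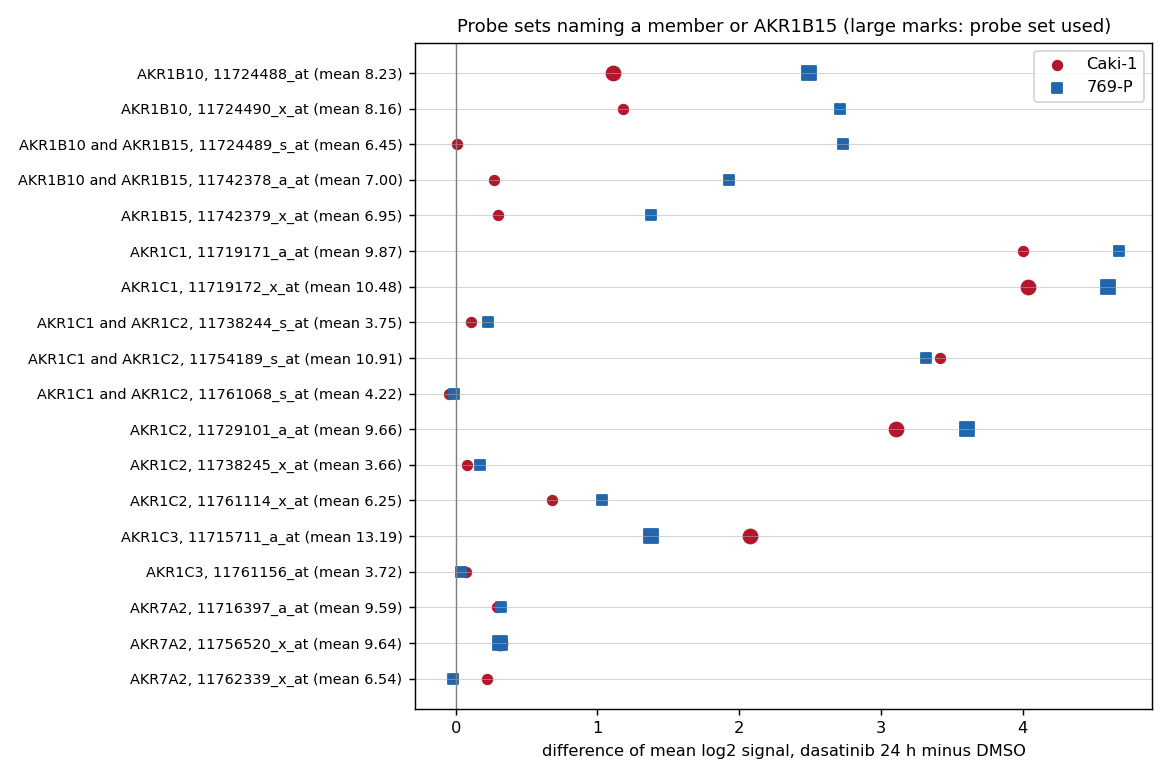
Difference of mean log2 signal between dasatinib at 24 h and DMSO for every probe set whose annotation names a measured member or AKR1B15, in Caki-1 (circles) and 769-P (squares), with the mean over 24 arrays in brackets and large marks for the probe set used. Probe sets with means near 4 lie close to 0, and the brightest set of AKR1C1 lies at 4.04 and 4.60.

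The dasatinib times can be compared with each other without the DMSO arrays. The dasatinib arrays of AKR1C1 entered the choice of the family, so its rises are given without a p-value and are not counted. At 12 h against 6 h in Caki-1, AKR1C2 rose by 1.76 ± 0.37 (adjusted p = 0.0028) and AKR1C3 by 0.76 ± 0.09 (SE, adjusted p = 6.5e-05). Both were called higher, as were 12.5% of all genes tested. AKR1C1 rose by 1.94 ± 0.29. AKR1B10 differed by -0.19 (adjusted p = 0.58), but by -0.53 without the 6 h replicate 1 array (adjusted p = 0.038), which read 6.82 where the other 6 h arrays read 7.88 and 7.76. In 769-P AKR1C2, AKR1C3 and AKR1B10 were called higher, against 8.92% of all genes, and AKR1C1 rose by 1.72 ± 0.22. AKR1C2 rose by 1.24 ± 0.08 (adjusted p = 4.4e-07), AKR1C3 by 0.33 ± 0.06 (adjusted p = 0.0016) and AKR1B10 by 1.09 ± 0.30 (SE, adjusted p = 0.018). The AKR1B10 call was lost without the 12 h replicate 2 array (1.00, adjusted p = 0.075), without the 12 h replicate 3 array (0.79, adjusted p = 0.1) or without the 6 h replicate 1 array (0.84, adjusted p = 0.1). The AKR1C3 call in 769-P was lost with all single-gene probe sets averaged (0.24, adjusted p = 0.096), and the AKR1C2 call in Caki-1 without the arrays numbered 3 in every group (1.77, adjusted p = 0.055).

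From 12 h to 24 h few changes of the members were called. At 24 h against 12 h in Caki-1, limma called none of AKR1C2, AKR1C3, AKR1B10 and AKR7A2. None had an unadjusted p under 0.05, where 25.2% of all genes tested were called in either direction. AKR1C1 differed by 0.14 there and is not counted. AKR1C2 differed by -0.29 (95% interval -1.08 to 0.50) and by -0.47 when the arrays numbered 1 were left out of every group (adjusted p = 0.00024). In 769-P AKR1C2 alone was called, again with AKR1C1 not counted, where 27.7% of all genes were. AKR1C2 fell by 0.52 ± 0.08 to a mean of 12.19 at 24 h, against 12.70 at 12 h (SE, adjusted p = 0.00025), and 10.8% of all genes were called lower. In a fit of all 24 arrays, which shares the spread between the lines, this fall was no longer called (adjusted p = 0.2). AKR1C1 differed by 0.39 in 769-P with or without the replicate number as a block, and is given without a p-value as above. In this comparison arrays of the same number deviated together. At 24 h against 6 h, AKR1C2 and AKR1C3 were called higher in Caki-1, where 28.1% of all genes were. In 769-P AKR1C2, AKR1C3 and AKR1B10 were called higher, where 25.8% of all genes were. AKR1B10 differed over that span by -0.39 in Caki-1 (adjusted p = 0.17), or by -0.72 without the 6 h replicate 1 array (adjusted p = 0.003), and by 1.14 in 769-P (adjusted p = 0.0057), where the call was lost without the arrays numbered 2 in every group (1.21, adjusted p = 0.058). AKR1C3 in 769-P rose by 0.28 over that span (adjusted p = 0.0017), and by 0.11 with all single-gene probe sets averaged (adjusted p = 0.37).

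The response to dasatinib differed between the lines for 2 members in the fit without a replicate block. AKR1C1 is not counted here, as above. Among the other members, limma called no difference between the Caki-1 change and the 769-P change at 6 h. Of the 12862 genes tested, 8.09% were called. AKR1C2 at -1.25 ± 0.41 and AKR1C3 at 0.29 ± 0.12 had an unadjusted p under 0.05. The AKR1C2 difference was called without the Caki-1 6 h replicate 2 array or the replicate 3 array (-1.47 and adjusted p = 0.038 each), and the AKR1C3 difference without the replicate 1 array (0.43, adjusted p = 0.0073). At 12 h AKR1C3 alone of these members was called, where 18.9% of all genes were. Its change was larger in Caki-1 by 0.72 ± 0.12 (SE, adjusted p = 0.00012), where 8.68% of all genes were called in that direction. AKR1B10 differed by -1.13 (adjusted p = 0.062), and was called without the 769-P DMSO replicate 3 array (-1.29, adjusted p = 0.045) or the 769-P 12 h replicate 1 array (-1.51, adjusted p = 0.0072).

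At 24 h the differences between the lines were called for AKR1C3 and AKR1B10, again with AKR1C1 not counted, where 36.0% of all genes were called. The AKR1C3 change was larger in Caki-1 by 0.70 ± 0.12 (adjusted p = 8.6e-05), where 13.8% of all genes were called in that direction. The AKR1B10 change was smaller in Caki-1, by -1.38 ± 0.42 (SE, adjusted p = 0.012), where 22.1% were. For AKR1C2 the interval of the difference ran from -1.36 to 0.35 and for AKR7A2 from -0.18 to 0.19. With the replicate number as a block, the AKR1C2 difference was called at 6 h (-1.25, adjusted p = 0.0016) and at 12 h (-0.73, adjusted p = 0.041). The AKR1C1 difference, -0.53 at 6 h and -0.56 at 24 h, also passed the threshold with the block. It is made of the values on which the family was chosen, so no p-value is given and nothing is read from that call. Over all genes tested, with every correlation required to be over 0.1, arrays of the same number deviated together against DMSO at 6 and 24 h in 769-P. In Caki-1 they did not by that rule, with correlations from -0.02 to 0.31 at 6 h. For AKR1C1 itself the array numbered 1 was the lowest in every group of both lines. With all single-gene probe sets averaged, the AKR1C3 difference was 0.21 at 12 h (adjusted p = 0.28) and 0.37 at 24 h (adjusted p = 0.027).

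Without dasatinib, AKR1C2, AKR1C3, AKR1B10 and AKR7A2 were called lower in Caki-1 than in 769-P, as were 29.9% of all genes tested. The DMSO arrays of AKR1C1 entered the choice of the family, so its difference is given without a p-value and is not counted. Each probe set is compared here with itself. AKR1C2 averaged 6.04 ± 0.04 in Caki-1 DMSO arrays and 8.57 ± 0.11 in 769-P DMSO arrays (SD, n = 3 each), a difference of -2.53 (adjusted p = 5.1e-08 by limma). AKR1C3 averaged 10.93 ± 0.14 in Caki-1 and 13.07 ± 0.17 in 769-P, a difference of -2.14 (adjusted p = 1.2e-16). AKR1B10 averaged 5.98 ± 0.12 in Caki-1 and 7.93 ± 0.28 in 769-P, a difference of -1.95 (adjusted p = 3.7e-06). The smaller differences were -0.76 for AKR1C1 and -0.22 for AKR7A2 (adjusted p = 0.0047 for AKR7A2). The AKR1C1 arrays of the 2 lines overlapped. Its difference was -0.52 without the 769-P DMSO replicate 3 array and -0.73 without the 769-P DMSO replicate 2 array. Without the Caki-1 DMSO replicate 1 array it was -0.60. With all single-gene probe sets averaged, the AKR1C2 difference was -0.95 and the AKR1C3 difference -0.99, both still called.

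The replicate number ran through several members. In the Caki-1 dasatinib groups the arrays numbered 1 were the lowest of their group for AKR1C1 and AKR1C2 at all 3 times, by -0.54 to -0.90 from the group mean, and for AKR1B10 at 6 and 24 h, by -0.67 and -0.46. Under DMSO in Caki-1, the array numbered 1 was also the lowest for AKR1C1, at -0.32 from the group mean, while AKR1C2 of that array lay at 0.04 and AKR1B10 at -0.06. In 769-P the arrays numbered 1 were lowest for AKR1C1 and AKR1B10 in every group, while for AKR1C2 they lay between -0.13 and 0.03 from the group mean. What sets these arrays apart was not tested.

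Among NRF2 genes outside the family, regulators moved in both directions and most of the targets called against DMSO were higher. The lists were chosen with earlier results of these arrays known. NFE2L2, which encodes NRF2, rose in Caki-1 by 0.73 at 6 h, 0.85 at 12 h and 1.02 at 24 h, and in 769-P by 0.41, 0.51 and 0.62 (highest adjusted p = 7.3e-05). SQSTM1, which encodes the p62 protein that can sequester KEAP1, rose in Caki-1 by 0.68, 0.82 and 1.01 and in 769-P by 0.55, 0.71 and 0.76. KEAP1, the repressor of NRF2, rose by 0.37 at 6 h and 0.23 at 12 h in Caki-1 and by 0.25 and 0.20 in 769-P, and at 24 h it differed by 0.08 (adjusted p = 0.27) and 0.11 (adjusted p = 0.2). CUL3, part of the ligase that degrades NRF2, fell by 0.46 at 24 h in Caki-1 and by 0.14 in 769-P. RBX1 of the same ligase fell by 0.50 and 0.58 at 24 h. MAFF, a small MAF partner of NRF2, fell by 0.97 at 6 h in 769-P (adjusted p = 0.0015) and stood at 0.07 at 24 h (adjusted p = 0.79). Of the 7 regulators tested, 3 were called higher and 2 lower at each time in Caki-1, against 3 and 2 at 6 and 12 h and 2 and 2 at 24 h in 769-P. Of all genes tested, 12.3%, 24.1% and 32.9% were called higher at 6, 12 and 24 h in Caki-1, and 14.0%, 24.4% and 29.9% lower. In 769-P the shares were 16.4%, 24.9% and 31.1% higher, and 14.5%, 22.6% and 24.6% lower. Nothing is read from counts out of 7 genes beside these shares.

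Of 23 NRF2 targets tested, 15 were called higher and 1 lower at 6 h in Caki-1, 13 and 1 at 12 h, and 12 and 3 at 24 h, with median differences of 0.30, 0.31 and 0.28. In 769-P 12 were called at 6 h, all of them higher, with 14 higher and 1 lower at 12 h and 12 higher and 3 lower at 24 h, and medians of 0.28, 0.38 and 0.35. Of all genes tested, 12.3%, 24.1% and 32.9% were called higher at 6, 12 and 24 h in Caki-1, and 16.4%, 24.9% and 31.1% in 769-P. The shares called lower were 14.0%, 24.4% and 29.9% in Caki-1, and 14.5%, 22.6% and 24.6% in 769-P. HMOX1, which breaks down heme, rose by 1.11, 1.53 and 1.99 at 6, 12 and 24 h in Caki-1 and by 3.12, 2.58 and 2.07 in 769-P. NQO1, a quinone reductase, rose by 0.69 at 24 h in Caki-1 and 1.04 in 769-P (adjusted p = 2.7e-09 and 4.7e-12). GCLC, the catalytic subunit of the enzyme that starts glutathione synthesis, rose in 769-P by 1.83, 1.44 and 1.37, and in Caki-1 by 0.56 at 6 h only among the 3 times (adjusted p = 0.0065, then 0.1 and 0.08).

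Some targets rose early and then turned. SLC7A11, the cystine importer, rose by 1.86 at 6 h in Caki-1 and stood at -0.14 at 24 h (adjusted p = 0.57), and in 769-P it rose by 1.10 at 6 h and fell by 0.89 at 24 h (adjusted p = 1.2e-06). GCLM, the regulatory subunit beside GCLC, rose by 1.04 at 6 h and fell by 0.71 at 24 h in Caki-1. ABCC3, an organic anion exporter, did the opposite: it stood at -0.07 at 6 h in both lines and rose by 2.13 in Caki-1 and 1.24 in 769-P at 24 h.

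**Figure D4:**
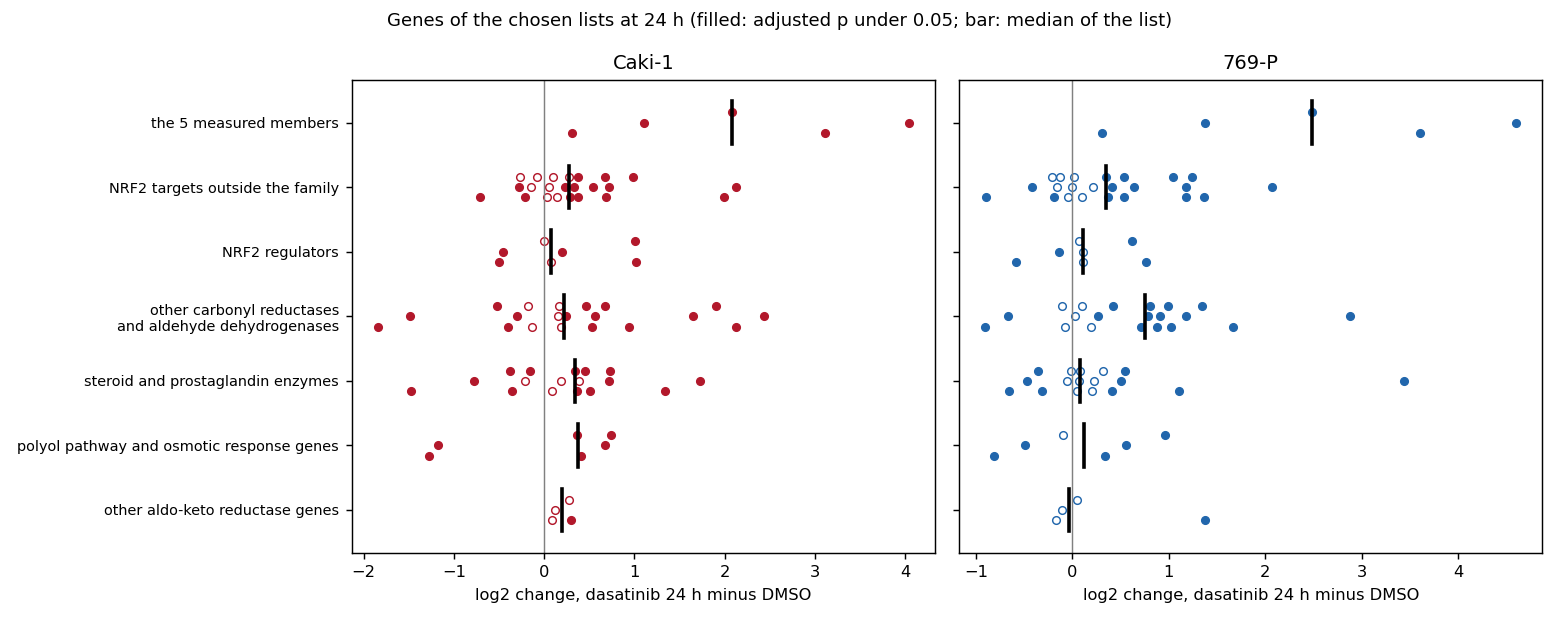
Log2 difference between dasatinib at 24 h and DMSO for each tested gene of the listed groups, in Caki-1 on the left and 769-P on the right, with filled points for an adjusted p under 0.05 and a bar at the median of each list. The 5 measured members have medians of 2.08 and 2.49, and the 23 NRF2 targets medians of 0.28 and 0.35.

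Other enzymes that act on aldehydes and ketones moved in both directions. Of 20 carbonyl reductases and aldehyde dehydrogenases tested, 10 were called higher and 5 lower at 24 h in Caki-1, with a median of 0.22, and 13 higher and 2 lower in 769-P, with a median of 0.75. Of all genes tested at 24 h, 32.9% were called higher and 29.9% lower in Caki-1, and 31.1% and 24.6% in 769-P, so that the Caki-1 share called lower was no larger than that of all genes. RDH10, which oxidises retinol to retinal, rose by 2.44 ± 0.13 in Caki-1 and 1.34 ± 0.13 in 769-P (SE, adjusted p = 1e-09 and 3.8e-07). ALDH1A1, which oxidises retinal to retinoic acid, rose by 0.67 ± 0.20 in Caki-1 and 2.88 ± 0.16 in 769-P. ALDH1A3, another retinal dehydrogenase, fell by 1.84 in Caki-1 and rose by 0.91 in 769-P, and the difference between the lines was called (-2.75, adjusted p = 2.5e-07). ALDH2, which clears acetaldehyde, rose by 2.13 and 0.79, and ALDH1B1, its mitochondrial relative, fell by 1.49 and 0.67. ALDH3A2, which oxidises fatty aldehydes, rose by 1.67 in 769-P, with 0.19 in Caki-1 (adjusted p = 0.13).

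Enzymes that share steroid and prostaglandin substrates with the AKR1C members were mixed. Of 17 tested, 8 were called higher and 5 lower at 24 h in Caki-1, with a median of 0.34, and 5 higher and 4 lower in 769-P, with a median of 0.08. Beside the 32.9% and 29.9% of all genes called higher and lower in Caki-1, and the 31.1% and 24.6% in 769-P, the lower count in Caki-1 and both counts in 769-P are near the background. HSD17B2, which inactivates testosterone and estradiol, rose in 769-P by 1.36 at 6 h, 2.71 at 12 h and 3.44 at 24 h (adjusted p = 3.7e-10 at 24 h), and lay below the testing limit in Caki-1. PTGS2, the inducible prostaglandin synthase, rose in Caki-1 by 2.0, 1.21 and 1.34 at 6, 12 and 24 h, and PTGES, which makes prostaglandin E, by 0.59, 1.31 and 1.73. PTGS1, the constitutive form of that synthase, fell by 1.48 at 24 h in Caki-1, and PTGES3 fell in both lines, by 0.78 and 0.66. HSD17B11, an oxidising enzyme of the same class, rose by 0.72 in Caki-1 and 1.11 in 769-P.

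AKR1B1, aldose reductase, was not analysed here. Of a list of genes of the polyol pathway and of the response to osmotic stress, in which it acts, 6 were tested. All 6 belong to the osmotic response, and SORD and KHK, the polyol pathway enzymes listed, were not among them. At 24 h 4 were called higher and 2 lower in Caki-1, with a median of 0.38, and 3 higher and 2 lower in 769-P, with a median of 0.12. Of all genes, 32.9% and 29.9% were called higher and lower in Caki-1 and 31.1% and 24.6% in 769-P, and nothing is read from counts out of 6 genes beside these shares. NFAT5, the transcription factor of the osmotic response, rose by 0.74 in Caki-1 and 0.56 in 769-P, and SLC6A6, the taurine importer, by 0.68 and 0.96. SLC5A3, the myo-inositol importer, fell by 1.18 and 0.81, and HSPA4L, a chaperone, fell by 1.28 and 0.49. Among the other aldo-keto reductase genes, 4 were tested in each line, with medians of 0.20 in Caki-1 and -0.03 in 769-P at 24 h, and AKR1B15 was the one called.

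The genes whose pattern was most like that of AKR1C1, after the mean of each line was taken out, were ALDH6A1 (Pearson's r = 0.978), IMPA2 (0.978), FAM8A1 (0.976), WIPI1 (0.975) and KIZ (0.975), among 12861 other genes over the same 24 arrays. AKR1C2 stood at place 19 (r = 0.965), AKR1C3 at place 112 (0.940), AKR7A2 at place 775 (0.859) and AKR1B10 at place 812 (0.855). For AKR1B10 the most alike were HECW2 (0.941), AKR1B15 (0.928), RNF141 (0.920), CLCN3 (0.914) and LRRK2 (0.911), with AKR1C1 at place 83. These correlations are descriptions over arrays that share treatment, line and replicate number.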

How the data were processed

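RNA of 24 samples of 2 renal carcinoma lines was measured on PrimeView arrays. The deposited values are log2 signals, 1 for each array and probe set. MAS5 is named per the submitters' processing notes, without version or settings. Its use on an array design that has no mismatch probes is not given in the sources used here. Groups were taken from the labels. Of 49395 probe sets the platform annotation gave 44994 to 1 gene and 1832 to several, and 2569 are unnamed here. Each gene used its single-gene probe set with the highest mean over the arrays, a choice that favours probe sets that are bright under treatment. A gene was tested in a line if its mean lay above the 40th percentile of all probe sets, and over both lines if it passed in either. The deposited log2 values were fitted by group means in limma 3.58.1 (R 4.3.3), with eBayes and an intensity trend: 12 arrays for comparisons within a line (8 residual degrees of freedom), all 24 for comparisons between lines (16). The SE of a comparison had a median of 0.100 for Caki-1, of 0.105 for 769-P and of 0.151 for line differences, and the number of arrays limits precision. The script was tested on simulated data.

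Members, lists and tests were chosen with earlier results of these data known. Named genes were all members, of each list up to 4 called genes with the largest change in a comparison (shown at all times), and the 5 most correlated with AKR1C1 and with AKR1B10. Replicate numbers are in the labels. Same-numbered arrays deviated together, with every correlation over 0.1, in 769-P at 6 h against DMSO (0.11 to 0.36) and at 24 h against DMSO (0.12 to 0.17), in Caki-1 at 12 h against 6 h (0.13 to 0.26) and in the 769-P comparisons between times (0.10 to 0.30), so blocked values stand beside a result of these where they change its call. Alternatives were the replicate block, the mean of all single-gene probe sets, other filters on dim genes, quantile normalization, median centring, no intensity trend, 1 fit of all arrays and each array left out in turn. Leaving out 1 replicate number in every group was added after the arrays numbered 1 were seen to lie apart. Promoter stretches were aligned with Biopython 1.88 (match 2, mismatch -1).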

Additional observations from a re-analysis of the deposited data

Results flagged for a closer look

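The 3 differences flagged here are those between the lines that the test of the difference called, so that call adds no support to them. The AKR1C3 change from DMSO was larger in Caki-1 than in 769-P by 0.72 at 12 h and by 0.70 at 24 h on the log2 scale (adjusted p = 0.00012 and 8.6e-05 by limma), with the 769-P arrays near the top of the signal scale. With all single-gene probe sets of AKR1C3 averaged, the 12 h difference was 0.21 and not called (adjusted p = 0.28), and the 24 h difference was 0.37 (adjusted p = 0.027). The AKR1B10 change at 24 h was smaller in Caki-1 than in 769-P, with a difference of -1.38 (adjusted p = 0.012), and without the arrays numbered 2 in every group the difference of -1.37 was not called (adjusted p = 0.13).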

How the results depend on the processing

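The differences of AKR1C1, AKR1C2, AKR1C3 and AKR1B10 from DMSO kept their direction at all 3 times in both lines under each alternative tried, and the AKR7A2 ones did too. Over all alternatives, 474 of the member values against DMSO kept their side of the threshold and 36 lost their call, most of them of AKR7A2. Values of AKR1C1 are among the 474, and because the family was chosen on them this tally is a description. Counts of the 5 members called that moved by over 1.5 times were as follows, and they include AKR1C1, so they are a description. With the replicate number as a block, 2 were called at 24 h against 12 h in 769-P, 2 in the line difference at 6 h and 3 at 12 h, against 1, 0 and 1 without it. In the line differences the blocked fit also called AKR1C2 at 6 h (-1.25, adjusted p = 0.0016) and at 12 h (-0.73, adjusted p = 0.041), and AKR1B10 at 12 h (-1.13, adjusted p = 0.0012). Numbers did not pair arrays in most comparisons with DMSO. AKR1C1 is among the blocked calls at 24 h against 12 h in 769-P and in the line differences at 6 h (-0.53) and 24 h (-0.56). It is given no p-value, because the family was chosen on it. With all single-gene probe sets averaged, 0 were called in the line difference at 12 h, and in a fit of all 24 arrays 0 at 24 h against 12 h in 769-P. Without the arrays numbered 1 in every group, 1 was called at 24 h against 12 h in Caki-1, 2 in 769-P, and 2 in the line differences at 6 h and at 12 h. Without those numbered 2, 3 were called at 6 h in either line and 1 in the line difference at 24 h. Without those numbered 3, 3 were called at 6 h in Caki-1 and 3 between the DMSO groups of the lines. Leaving out single arrays gave 0 to 1 in the line difference at 6 h and 1 to 2 at 12 h. The values that changed sign were not called under either setting. With averaged probe sets they were AKR1C3 at 24 h against 12 h in Caki-1 (0.03), and AKR7A2 there (-0.01), at 12 h against 6 h in 769-P (0.05) and in the line difference at 6 h (0.06). With median centring they were AKR7A2 at 24 h against 12 h in Caki-1 (-0.02) and in the line difference at 24 h (-0.04). Without the arrays numbered 1 they were AKR1B10 at 24 h against 12 h (0.05 in Caki-1, -0.10 in 769-P), AKR7A2 there in Caki-1 (0.00) and in the line difference at 24 h (-0.05), and AKR1C1 in the line difference at 12 h (0.02). Without those numbered 2 it was AKR7A2 in the line difference at 6 h (0.04). Without those numbered 3 they were AKR7A2 at 24 h against 12 h in Caki-1 (-0.07) and in the line difference at 24 h (-0.04), and AKR1B10 in that at 6 h (-0.01). With single arrays left out, AKR1B10 ran from -0.10 to 0.48 in the line difference at 6 h, from -0.53 to 0.00 at 12 h against 6 h in Caki-1, and at 24 h against 12 h from -0.33 to 0.03 in Caki-1 and from -0.33 to 0.34 in 769-P. AKR1C1 ran from -0.17 to 0.42 at 24 h against 12 h in Caki-1. AKR7A2 ran from -0.06 to 0.03 and from -0.04 to 0.05 in the line differences at 6 and 24 h, from -0.04 to 0.04 at 24 h against 12 h in Caki-1, and from -0.06 to 0.01 at 12 h against 6 h in 769-P. Among all genes, only leaving out a replicate number in every group, which also leaves fewer arrays, moved counts by over 1.5 times: for example, 359, 366 or 2369 genes were called higher at 12 h against 6 h in Caki-1 without numbers 2, 3 or 1, against 1548 with all arrays. The causes were not tested.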
